A study of Mus musculus with 18 samples.

Results

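The regions described here are the H3K27me3 peaks of vehicle-treated pre-osteoblasts that were still overlapped, by at least 1 bp, by an H3K27me3 peak after treatment with EPZ6438. Of 143399 peaks in the DMSO list, 15532 (10.8%) met this rule and are called persisting peaks; the other 127867 had no overlapping peak in the EPZ6438 list. The members were therefore chosen from the H3K27me3 lists themselves, and everything about their overlap with EPZ6438 peaks is a description without a test. The cells were MC3T3-E1 subclone 4, a line of pre-osteoblasts from C57BL/6 mouse calvaria, cultured in osteogenic medium and collected on day 3. They had received 0.25% DMSO or 2.5 µM EPZ6438, an inhibitor of the methyltransferase EZH2; the labels do not say if DMSO was present with EPZ6438. The labels list 2 samples per arm for H3K27me3, H3K4me3 and input, and 3 per arm for RNA, but the peaks came as 1 merged list per mark and arm. The peak results thus carry no replicate error, the depth behind them is unknown here, and intervals cover counting error only. The line is 1 clone, and separate cultures are not stated, so the p-values rest on the spread among these libraries, which could be purely technical.

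H3K27me3 is trimethylation of lysine 27 of histone H3, written by Polycomb repressive complex 2 through EZH2 or its relative EZH1, and it marks genes that are kept silent, above all developmental regulators. An inhibitor of EZH2 blocks new methylation, while existing marks are lost through cell division, histone exchange and demethylases. H3K4me3 marks the promoters of active and poised genes, and regions that carry both marks are often called bivalent. In vertebrates Polycomb complexes are found mostly at promoters rich in CG dinucleotides, so the CG content of persisting regions is shown with them.

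The sequences below are the 250 bases before the annotated start of 6 genes whose promoter lay wholly in a persisting peak, chosen because the genes recur in the results, with each CG in capitals. They are not a sample of such promoters and hold more CG than most. They were read from RefSeq on GRCm38.p6, the assembly that mm10 displays, and are printed 5′ to 3′ on the strand of the gene. The Hoxd13 promoter (chr2:74667975-74668224, + strand) held 31 CG, and an EPZ6438 peak covered 59 of its bases. The Wnt3a promoter (chr11:59290752-59291001, − strand) held 41 CG, and the Foxn4 promoter (chr5:114273762-114274011, − strand) held 17; both were covered over all 250 bases after EPZ6438. Wnt8b (chr19:44493222-44493471, + strand) had the lowest count of these promoters, 5 CG, and an EPZ6438 peak touched 0 of the 250 bases although one overlapped the same DMSO peak elsewhere. Phf19 (chr2:34913977-34914226, − strand) held 31 CG with 228 bases covered after EPZ6438, and Clec2l (chr6:38662819-38663068, + strand) held 21 CG with 137 bases covered.
Hoxd13: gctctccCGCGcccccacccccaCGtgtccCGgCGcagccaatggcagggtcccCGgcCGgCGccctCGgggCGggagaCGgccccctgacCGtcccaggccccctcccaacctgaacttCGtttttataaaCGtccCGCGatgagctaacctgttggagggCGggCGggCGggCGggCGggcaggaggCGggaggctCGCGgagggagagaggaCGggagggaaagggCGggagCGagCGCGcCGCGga
Wnt3a: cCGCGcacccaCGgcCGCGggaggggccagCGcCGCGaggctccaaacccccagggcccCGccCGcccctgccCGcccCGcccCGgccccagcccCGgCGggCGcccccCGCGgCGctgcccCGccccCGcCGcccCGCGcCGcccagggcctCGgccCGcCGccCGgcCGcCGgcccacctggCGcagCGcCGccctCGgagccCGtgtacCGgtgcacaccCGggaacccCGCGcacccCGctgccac
Foxn4: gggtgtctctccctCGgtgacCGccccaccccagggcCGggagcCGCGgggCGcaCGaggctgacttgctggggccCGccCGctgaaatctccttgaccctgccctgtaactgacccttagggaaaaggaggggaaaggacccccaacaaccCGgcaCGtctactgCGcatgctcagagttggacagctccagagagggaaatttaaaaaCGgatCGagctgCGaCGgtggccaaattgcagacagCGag
Wnt8b: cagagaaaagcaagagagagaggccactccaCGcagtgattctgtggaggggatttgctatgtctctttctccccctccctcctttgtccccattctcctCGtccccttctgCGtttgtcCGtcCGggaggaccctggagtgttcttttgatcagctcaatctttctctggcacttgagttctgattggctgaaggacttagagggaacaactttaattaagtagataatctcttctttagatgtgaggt
Phf19: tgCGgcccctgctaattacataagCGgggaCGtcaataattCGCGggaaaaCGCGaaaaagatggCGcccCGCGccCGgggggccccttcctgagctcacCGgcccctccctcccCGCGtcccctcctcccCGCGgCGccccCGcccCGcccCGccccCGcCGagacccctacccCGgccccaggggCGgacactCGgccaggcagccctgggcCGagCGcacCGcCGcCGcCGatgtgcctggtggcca
Clec2l: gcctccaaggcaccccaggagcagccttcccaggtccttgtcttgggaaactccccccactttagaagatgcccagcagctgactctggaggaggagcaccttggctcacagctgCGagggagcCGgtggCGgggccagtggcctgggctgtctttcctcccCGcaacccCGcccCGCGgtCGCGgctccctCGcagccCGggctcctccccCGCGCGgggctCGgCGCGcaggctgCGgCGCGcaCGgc

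Few microRNA hairpins lay in persisting peaks. Of 1005 microRNA hairpins in the RefSeq table, 15 overlapped a DMSO H3K27me3 peak and 4 overlapped a persisting one, namely Mir9-3, Mir138-1, Mir7222 and Mir6405. The mature sequences of the first pair are printed, with the seed (bases 2 to 8) in capitals, because both microRNAs are known from neural tissue. Mir9-3 lay in a peak of 867 bp (chr7:79505105-79505971) of which 23.6% was covered after EPZ6438 and which had 24 other DMSO peaks within 50 kb. Mir138-1 lay in a peak of 1659 bp (chr9:122681864-122683522), 49.7% covered, which also overlapped an H3K4me3 peak in DMSO. The 4 mature sequences have 4 different seeds.
mmu-miR-9-5p: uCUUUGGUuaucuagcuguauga
mmu-miR-9-3p: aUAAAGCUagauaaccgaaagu
mmu-miR-138-5p: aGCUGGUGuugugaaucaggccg
mmu-miR-138-1-3p: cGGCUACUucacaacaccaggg

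Persisting peaks were wider than the other DMSO peaks. Their median width was 803 bp, with quartiles of 372 and 1505 bp, against 367 bp, with quartiles of 204 and 738 bp, for the other peaks. They were 10.8% of the DMSO peaks but held 17.7 of 89.4 Mb, which is 19.8% of the bases in DMSO peaks. Peaks of at least 2 kb made up 15.5% of the persisting peaks (2410) and 2.41% of the others (3085), whereas peaks under 200 bp made up 7.28% (1131) and 23.8% (30484). The share of DMSO peaks that persisted was higher in each wider class. It was 3.58% (95% Wilson interval 3.38% to 3.79%) of 31615 peaks of 168 to 199 bp, 7.12% of those of 200 to 299 bp and 8.78% of those of 300 to 499 bp. It was 10.9% (10.6% to 11.3%) at 500 to 999 bp, 21.2% at 1000 to 1999 bp and 43.9% (42.6% to 45.2%) of the 5495 peaks of 2 kb or more. A wider interval offers more bases for an overlap of 1 bp, so width and the rule are not independent.

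The width difference was also read under other rules. When at least 50% of a DMSO peak had to be covered by EPZ6438 peaks, 7864 peaks persisted, and the median width was 454 bp against 396 bp for the rest. When only peaks of at least 400 bp in both lists were used, 7251 persisted, with a median of 1200 bp against 774 bp. A share of the peak is reached more easily by a narrow peak, so the 50% rule depends on width as well, in the other direction.

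At most persisting peaks the EPZ6438 intervals were shorter than the DMSO interval. The EPZ6438 peaks that touched a persisting peak were together shorter than it in 11056 cases (71.2%) and longer in 4455 (28.7%), with a median length of 494 bp against 803 bp. EPZ6438 peaks covered 7.05 Mb of the persisting peaks, 39.8% of their bases. The covered share of a peak had a median of 50.8% and quartiles of 25.7% and 80.4%. It was complete for 1277 peaks (8.22%) and under 10% for 870 (5.60%). The covered share was lower in wider peaks, from a median of 90.5% in peaks of 168 to 199 bp to 52.2% at 500 to 999 bp and 25.4% in peaks of 2 kb or more (Spearman's rho −0.555 across 15532 peaks, which are not independent replicates). DMSO width is the denominator of the covered share, so share and width are tied by construction. No EPZ6438 peak was shorter than 185 bp, and those that overlapped a DMSO peak had a median width of 470 bp. The fall with width thus follows largely from the measure and is not a result about wide peaks. Most persisting peaks (15017) met a single EPZ6438 peak, and 515 were split over 2 or more, up to 4. "Persisting" here therefore means that a called interval remained somewhere within the DMSO interval; the lists hold no height, so the level of the mark was not measured.

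The EPZ6438 peaks that fell on persisting regions had a higher median width than the rest of that list. The EPZ6438 list held 20764 peaks, of which 15803 (76.1%) overlapped a DMSO peak. Their median width was 470 bp, against 305 bp for EPZ6438 peaks with no DMSO counterpart. A wider EPZ6438 interval also offers more bases for an overlap of 1 bp, so this difference is not independent of the rule.

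The members closest to the limit of the rule were few. The overlap had a median of 286 bp, and 289 persisting peaks (1.86%) rested on less than 50 bp. The smallest overlaps were 1 bp, in a 530 bp peak within Spata17 (chr1:187203696-187204225) and a 180 bp peak (chr10:87038481-87038660) 19385 bp from 1700113H08Rik. Just outside, a 284 bp peak near Lrp2 (chr2:69595053-69595336) touched an EPZ6438 peak with a gap of 0 bp, and an 834 bp peak (chr3:18385460-18386293) lay 1 bp from one. Among the other DMSO peaks 3569 (2.79%) lay within 1 kb of an EPZ6438 peak, and the median gap was 27950 bp.

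Persisting peaks lay where DMSO peaks were dense. They had a median of 16 other DMSO peaks within 50 kb (quartiles 11 and 22), against 10 (5 and 16) for the other peaks. The share that persisted was 1.97% (1.81% to 2.15%) of 26086 peaks with 0 to 4 neighbours, 11.0% with 10 to 14 neighbours, and 25.3% (24.4% to 26.1%) of 10582 peaks with 25 or more. Density differed also between peaks of like width: persisting peaks of 168 to 199 bp had a median of 14 neighbours against 9, and those of 2 kb or more had 17 against 12. The covered share did not follow density, with medians from 49.4% to 51.7% over the 6 density classes. Persisting peaks also lay near each other: 21.8% of the neighbours of a persisting peak persisted, against 14.1% of the neighbours of another peak, and 16.1% against 46.5% had no persisting neighbour within 50 kb. Both measures depend on density, since dense places held more neighbours and a higher share that persisted. Adjacent peaks could also persist through the same EPZ6438 peak, as 289 EPZ6438 peaks overlapped more than 1 DMSO peak, up to 5. Nearness beyond density was not tested.

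**Figure D1:**
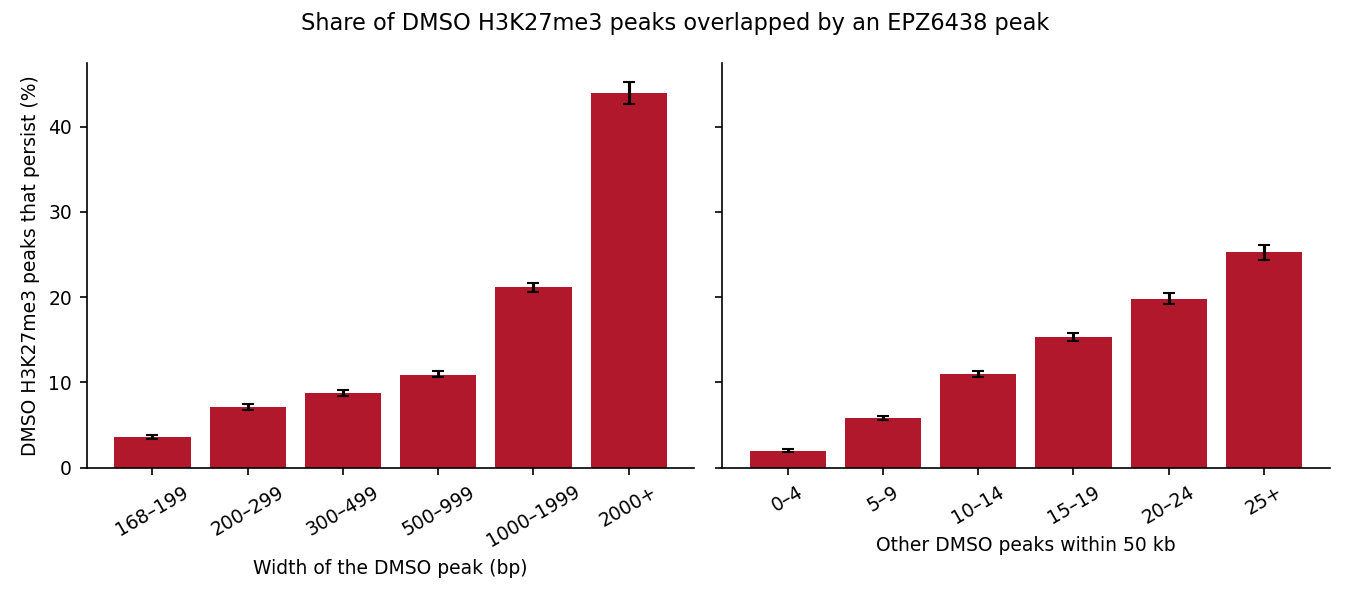
Share of DMSO H3K27me3 peaks overlapped by an EPZ6438 peak (%), by the width of the DMSO peak in bp (left) and by the number of other DMSO peaks within 50 kb (right); bars are the share over all peaks of a class and lines the 95% Wilson interval, which covers counting error only. The share went from 3.58% to 43.9% over the width classes and from 1.97% to 25.3% over the density classes.

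The densest places were clusters of many separate persisting peaks. In windows of 100 kb, 6174 of the 20478 windows with a DMSO peak held a persisting one, and 109 windows with 10 or more held 1319 persisting peaks (8.49%). The window with the most was chr6:83600001-83700000, where 25 of 34 DMSO peaks persisted and 15236 of their 28056 bp were covered after EPZ6438. It holds Clec4f and Cd207, genes for C-type lectins (the latter is langerin of Langerhans cells); Clec4f had 0 reads in the 6 libraries and Cd207 had 0 in DMSO and 2 in EPZ6438. In chr1:172200001-172300000, 23 of 30 peaks persisted. Of the genes there, Casq1 and Atp1a4 had 0 reads. Pea15a and Igsf8, in the same window, were expressed at 21.4 ± 1.96 and 5.25 ± 1.90 RPKM in DMSO (SD, n = 3), and neither passed the test (limma, adjusted p = 0.117 and 0.278). RPKM is reads per kilobase of the gene length given with the expression values and per 1000000 reads in genes. That length can be far shorter than the span of the gene. In chr6:91300001-91400000, 21 of 34 peaks persisted; the window holds part of Wnt7a, which encodes a Wnt ligand and had 0 reads in every library.

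Chromosomes differed in the share that persisted. It was 15.1% on chromosome 19 (867 of 5753), 14.1% on chromosome 6 (1767 of 12494), 13.2% on chromosome 2 and 12.9% on chromosome 17. It was 6.74% on chromosome 13, 7.56% on chromosome 16 and 3.25% on X (59 of 1813). X was lowest of chromosomes 19, 6, 2 and X in each of the 3 wider classes, but the order of the other three changed. They gave 14.9%, 13.9% and 13.3% at 500 to 999 bp, with 3.57% on X, and 23.1%, 23.5% and 25.3% at 1000 to 1999 bp, with 5.88% on X. At 2 kb or more they gave 49.6%, 45.8% and 45.2%, with 24.0% on X. Median neighbour counts of chromosomes 19, 6, 2 and X were 14, 13, 13 and 4; the part of density in these shares was not tested. Without chromosome 6, 13765 peaks persisted, 10.5% of the remainder.

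The 5 widest persisting peaks spanned 9083 to 12062 bp, and all 5 overlapped an H3K4me3 peak in DMSO. The widest (chr19:45284141-45296202) was 38.8% covered after EPZ6438, by 3 separate peaks, and had 28 neighbours, 8 of them persisting. Only protein-coding genes were searched around these 5 peaks. The nearest end of one, of the homeobox gene Lbx1, was 48329 bp from the widest peak. The next (chr6:42645643-42656504, 10862 bp, 34.5% covered) lay 389 bp from Fam115c and was the only one of the 5 with an H3K4me3 peak in EPZ6438 too. A peak of 9645 bp (chr10:80490540-80500184, 20.2% covered) spanned the left end of Onecut3, a homeobox gene. The last pair lay outside protein-coding genes, 6064 bp from Lipa (chr19:34533538-34542881, 38.0% covered) and 39413 bp from Atg5 (chr10:44219863-44228945, 43.4% covered by 4 peaks).

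Most persisting peaks lay away from gene ends, as did most other peaks. Within 1 kb of either end of a gene were 1244 persisting peaks (8.01%) and 6956 others (5.44%). Persisting peaks overlapped a gene in 39.4% of cases and the others in 35.3%, and 57.4% and 61.9% lay outside genes and over 1 kb from an end. The higher share at gene ends was seen within each width class, by as little as 5.78% against 5.39% at 200 to 299 bp and as much as 7.53% against 5.11% at 300 to 499 bp; at 2 kb or more it was 11.2% against 8.85%. The share inside genes depended on density: among persisting peaks it went from 29.1% with 0 to 4 neighbours to 47.9% with 25 or more, and among the other peaks from 29.2% to 44.9%. Between peaks of like density the order was not constant. Persisting peaks were inside genes less often with 5 to 9 neighbours (30% against 31.3%) and 10 to 14 (32.6% against 34.7%). With 15 to 19 and 20 to 24 neighbours they were slightly above the others (41.1% against 40.6% and 46.1% against 45.6%). The higher share inside genes is therefore not separate from density.

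H3K4me3 in DMSO, which the rule did not use, overlapped persisting peaks more often. An H3K4me3 peak overlapped 4108 persisting peaks (26.4%, 95% Wilson interval 25.8% to 27.1%) and 12919 others (10.1%). Wider peaks overlapped H3K4me3 more often, and persisting peaks exceeded the others in each of the 6 width classes: 6.98% against 4.45% at 168 to 199 bp, 21.9% against 9.53% at 300 to 499 bp and 53.8% against 38.7% at 2 kb or more. These overlaps were mostly away from gene ends: 341 of the 4108 (8.30%) lay within 1 kb of a gene end. The H3K4me3 intervals covered a median of 20.9% of the 4108 persisting peaks they met and 34.1% of the 12919 others, whose median widths were 1275 and 611 bp. Coverage of at least 50% was reached in 18.3% and 37.2% of these, which is 4.85% of all persisting and 3.75% of all other peaks.

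The H3K4me3 list of the EPZ6438 arm gave a different picture. It overlapped 132 persisting peaks (0.850%) and 275 others (0.215%). The H3K4me3 lists themselves differed: the DMSO list held 40113 peaks with a median width of 212 bp, 23.5% of them within 1 kb of a gene end, and the EPZ6438 list held 16216 with a median of 401 bp, 72.2% at gene ends. With 1 list per arm, a change of the mark and a change of what was called cannot be told apart.

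**Figure D2:**
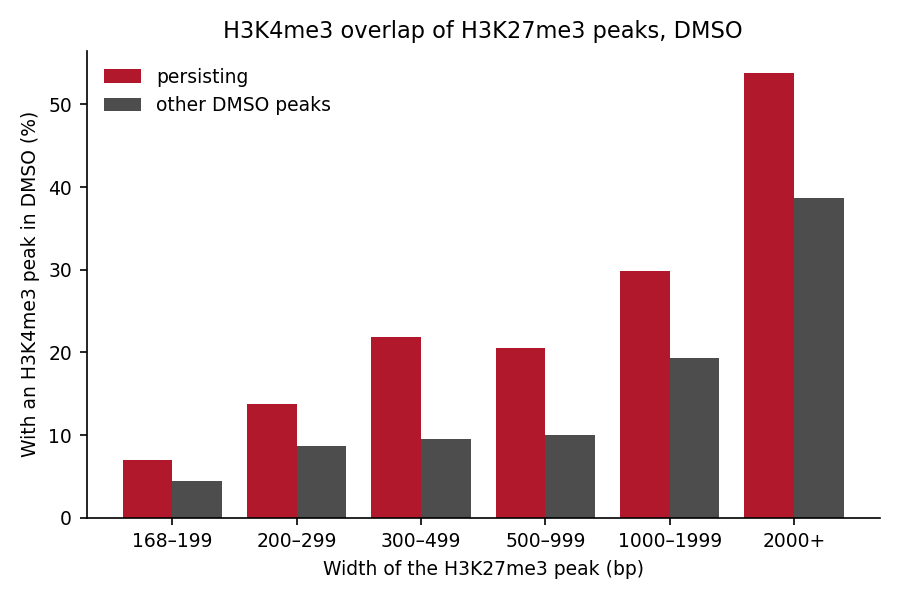
Share of H3K27me3 peaks that overlapped an H3K4me3 peak in DMSO (%), by width of the H3K27me3 peak in bp, for persisting (red) and other DMSO peaks (grey). In each of the 6 width classes the persisting peaks had the higher share, up to 53.8% against 38.7% at 2 kb or more.

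Promoters inside persisting peaks held more CG dinucleotides than other promoters. Of 32851 RefSeq promoters of 300 bases (250 before and 50 after the start; CG counted on the gene strand, and the same on the other), 314 overlapped a persisting peak, 778 only other DMSO peaks and 31759 none. The median number of CG was 13.5 in the first group (quartiles 4 and 28), 5 in the second and 7 in the third. At least 15 CG were present in 47.8% of persisting, 24.3% of other marked and 34.8% of unmarked promoters, against 34.6% of all promoters. In the bases shown, 5 of the 6 promoters printed above are past this limit and only Wnt8b, at 5, is under it, so they overstate the CG content of the group. Fewer than 5 CG were present in 25.8%, 46.3% and 38.0%. Several promoters can belong to 1 gene, and the 314 belong to 268 symbols. An EPZ6438 H3K27me3 peak lay on 208 of the 314. H3K4me3 peaks in DMSO overlapped 8.60% of the persisting and 5.27% of the other marked promoters, against 9.49% of all. With the H3K4me3 list of the EPZ6438 arm the persisting promoters were no longer above the other marked ones. The shares there were 2.55% and 2.83%, against 17.7% of all. The lists differed as given above, and the cause of this shift was not tested.

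**Figure D3:**
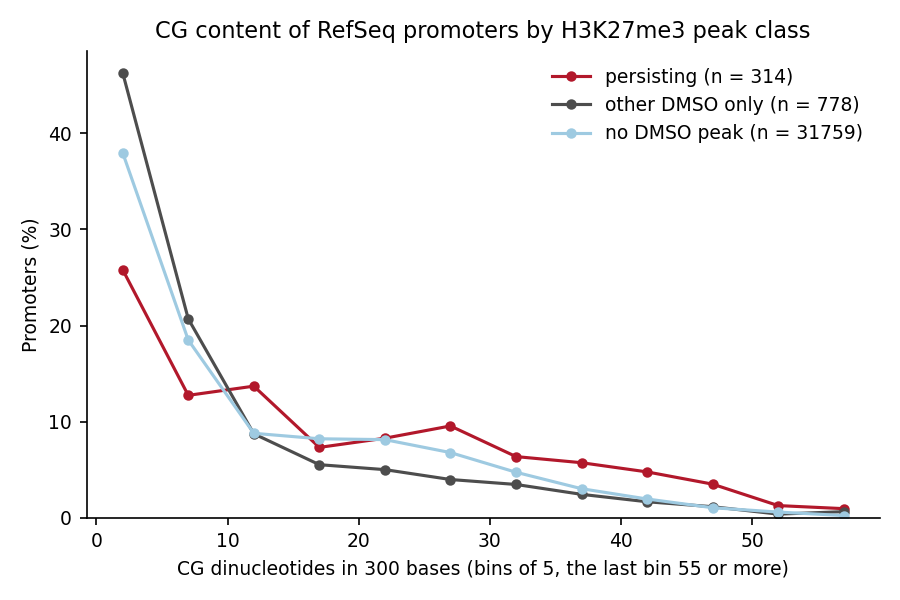
Number of CG dinucleotides in RefSeq promoters of 300 bases (x axis, bins of 5, the last bin 55 or more) against the share of promoters (%), for promoters in a persisting peak (n = 314), in other DMSO peaks only (n = 778) and in no DMSO peak (n = 31759). The persisting promoters had the lowest share under 5 CG, 25.8%, and 47.8% held at least 15.

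A persisting peak lay within 1 kb of an end of 1237 genes, and these genes were mostly silent. Protein-coding genes made up 705 of them (57.0%, against 50.8% of the 43309 genes in the table), and 142 were processed pseudogenes, 110 lincRNAs, 77 antisense genes and 37 microRNA genes. No read was found in any of the 6 RNA libraries for 697 (56.3%). This compares with 53.1% of the 5760 genes with other DMSO peaks only and 45.2% of the 36312 with no DMSO peak at an end. Here and below these classes count only peaks within 1 kb of an end, unless another window is named. A gene classed as having no DMSO peak, or other DMSO peaks only, can thus hold DMSO or persisting peaks further inside. Only 69 (5.58%) reached 1 RPKM in DMSO, against 10.9% and 32.3%. The RNA libraries held 18807156 to 25365513 reads in genes, and 3 reads, the limit that a count of 0 allows, are worth 0.118 to 0.160 CPM (reads per 1000000). In bulk RNA, fewer cells that express a gene and less RNA per cell cannot be told apart. The 6 pre-osteoblast markers checked, led by Col1a1, were present at 6.04 to 2170 RPKM in DMSO and 0 of them had an H3K27me3 peak at an end. The summed level of 3 blood markers was 0.975 to 1.27 RPKM in DMSO and 1.26 to 1.80 in EPZ6438, with Cd68 the highest; 2 of 3 endothelial markers and both skeletal muscle markers were at 0, and the 3 adipocyte markers summed to at most 0.180 RPKM.

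More of these genes were detected after EPZ6438. At least 1 read was found for 269, 286 and 314 of the 1237 genes in the DMSO libraries (21.7%, 23.1% and 25.4%) and for 349, 350 and 339 in the EPZ6438 libraries (28.2%, 28.3% and 27.4%). The arms did not overlap, although DMSO library 3 was the deepest of the 6. With 3 libraries against 3 an exact permutation test cannot go below p = 0.10, so none is given. Genes with other DMSO peaks only were detected at 28.3%, 31.0% and 32.3% in DMSO and 32.4%, 33.4% and 31.9% in EPZ6438, where the arms overlapped. The lack of overlap was not particular to persisting peaks, however. At 10 reads those same genes gave 15.2%, 15.7% and 16.5% against 17.2%, 17.6% and 16.8%, and the protein-coding genes among them gave 36.6%, 40.0% and 42.0% against 43.1%, 44.4% and 42.2% at 1 read, both without overlap. Genes with no DMSO peak gave 45.1% to 46.9% and 46.0% to 46.4%. At 0 in every DMSO library were 827 genes with a persisting peak, 3503 with other peaks only, 17765 with none and 22095 over all genes. Of these, 15, 31, 79 and 125 had a read in every EPZ6438 library. The reverse, 0 in every EPZ6438 library and a read in every DMSO library, held for 1, 8, 50 and 59 genes. The classes held 1237, 5760, 36312 and 43309 genes.

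**Figure D4:**
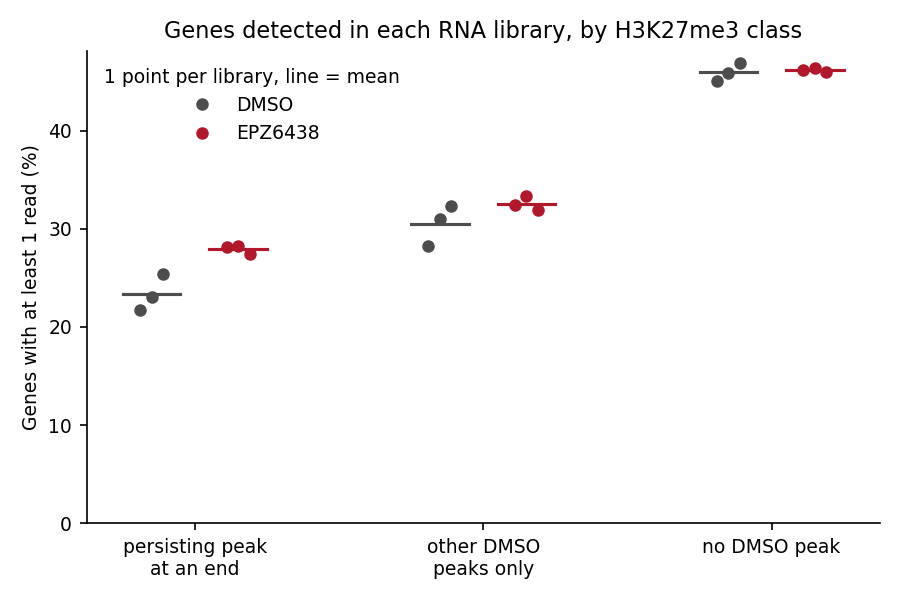
Share of genes with at least 1 read (%) in each RNA library, by H3K27me3 class of the gene ends; each point is 1 library (3 DMSO, 3 EPZ6438) and the line is their mean. For genes with a persisting peak the DMSO libraries sat at 21.7% to 25.4% and the EPZ6438 libraries at 27.4% to 28.3%.

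Of the 1237 genes, 127 (10.3%) had enough reads to be tested, that is 10 reads in at least 3 libraries. Of these 25 rose and 2 fell at an adjusted p under 0.05, and 100 did not pass (limma on log2(RPKM + 0.1), Benjamini-Hochberg over 14213 genes; changes on this scale understate those of low genes). Over all tested genes 3.8% rose and 3.24% fell, and 7.04% were called in either direction. The share that rose was 19.7% with a persisting peak, 11.2% with other DMSO peaks only (109 of 970) and 3.10% with none (406 of 13116). Falls were 1.57%, 1.55% and 3.39%. The median log2 change of the tested genes was 0.14, 0.05 and −0.03, and −0.03 over all. The arms did not overlap for 53 of the 127 (41.7%), against 26.7% of all tested genes. These shares were partly set by the filter, since a gene nearly silent in DMSO could be tested only through its reads in EPZ6438. Of the 25 rising genes 10 had under 10 reads in every DMSO library, as had 13 of the 127 tested; with other peaks only these numbers were 19 of 109 and 33 of 970. Without such genes the share that rose was 13.2% (15 of 114), against 9.61% with other peaks only and 3.40% over all. With no filter on low reads it was 2.78% (15 of 540), against 2.37% (64 of 2701) and 1.53% over all. The counts say nothing of the 1110 genes left untested.

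The counts depended on single libraries. Without DMSO library 2, 12 of the 127 genes rose, and without EPZ6438 library 1, 2 or 3 the numbers were 12, 12 and 11; all tested genes gave 323, 445, 424 and 359 calls in these fits, against 1001 with every library. Where a DMSO peak counted as persisting only if at least 50% of it was covered, 8 of 55 tested genes rose (14.5%), against 126 of 1042 with other peaks only (12.1%). Among protein-coding genes alone 24 of 90 rose and 1 fell, against 108 rises of 753 with other peaks only. Split by the widest DMSO peak at the gene's ends, persisting against other, the share that rose was 18.9% against 10.7% under 1000 bp and 8 of 40 against 22 of 151 at 1000 to 1999 bp, and 20.6% (7 of 34) against 8.89% (4 of 45) at 2 kb or more. The difference between the classes was not tested.

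The 25 genes that rose came mostly from very low levels. In DMSO 22 were under 1 RPKM, and in EPZ6438 9 reached it. An H3K4me3 peak lay at an end in DMSO for 10 of the 25, against 47 of the 127 tested genes with a persisting peak (37.0%). For all 27 genes that passed, the 3 EPZ6438 libraries lay wholly above or wholly below the 3 DMSO libraries. Genes picked by a test of 3 against 3 libraries will mostly separate in this way, so this adds no support to the calls.

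**Figure D5:**
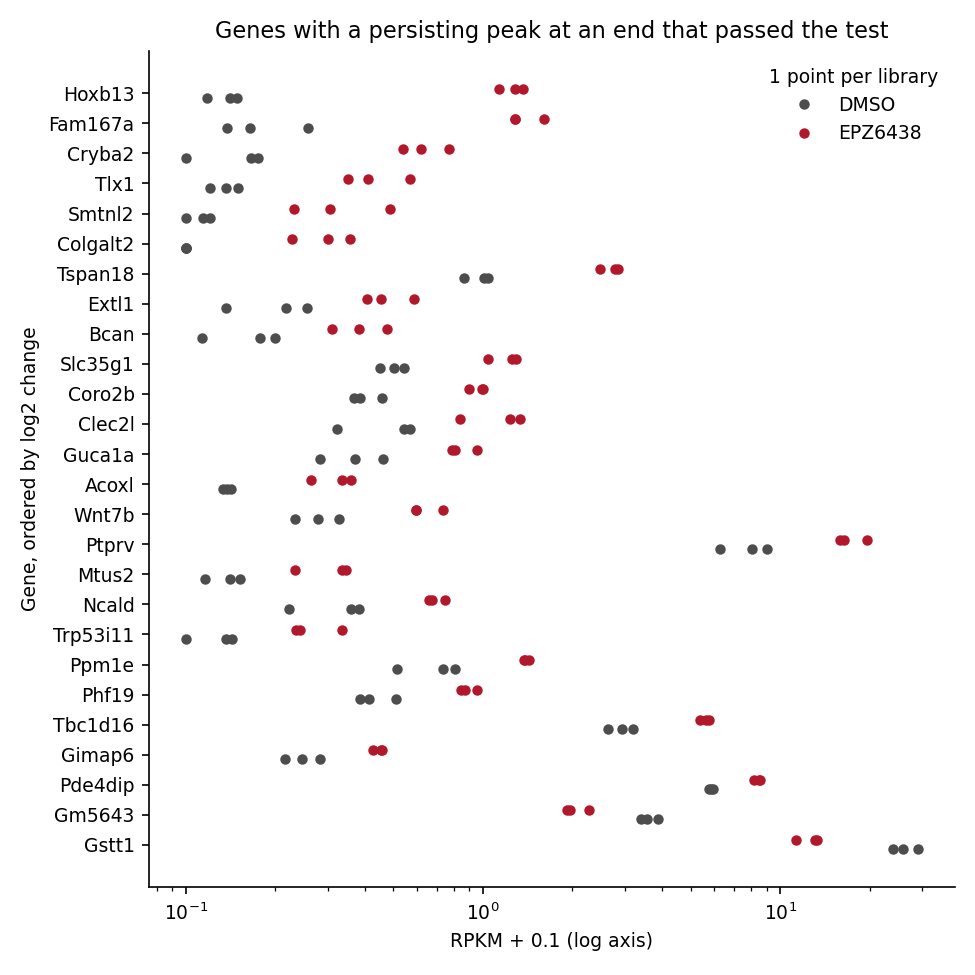
RPKM + 0.1 (log axis) of 26 of the 27 genes with a persisting peak at an end that passed the test, 1 point per RNA library (3 DMSO in grey, 3 EPZ6438 in red), ordered by log2 change. Hoxb13 leads with a rise of 3.21 on the log2 scale, Pde4dip has the smallest rise at 0.52, and Gm5643 and Gstt1 fell.

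Hoxb13, a homeobox gene of the posterior end of the HoxB cluster, had the largest rise on the log2(RPKM + 0.1) scale, though in voom on recovered reads Colgalt2, at 0 in DMSO, exceeded it (5.15 against 4.74). Hoxb13 gave 0.0482, 0.0408 and 0.0179 RPKM in DMSO and 1.03, 1.26 and 1.18 in EPZ6438, a log2 change of 3.21 ± 0.19 (SE; limma, adjusted p = 0.000313). The gene (ENSMUSG00000049604, chr11:96194316-96197447) lay for the most part in a persisting peak of 3630 bp (chr11:96193245-96196874) that reached the windows of both its ends and was 71.9% covered after EPZ6438. All 3 EPZ6438 libraries were above 1 RPKM and all DMSO libraries were near 0. Hoxb13 thus rose while most of the peak over it was still called. Fam167a (chr14:63436394-63465498) gave 0.0373, 0.158 and 0.0646 RPKM in DMSO and 1.18, 1.18 and 1.51 in EPZ6438 (log2 change 2.94 ± 0.27, adjusted p = 0.00155), with a peak of 1203 bp of which 14.9% was covered.

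Tlx1, a homeobox gene of spleen development, also rose. The gene (chr19:45150680-45156943) gave 0.0497, 0.0210 and 0.0368 RPKM in DMSO and 0.311, 0.252 and 0.467 in EPZ6438 (1.68 ± 0.24, adjusted p = 0.00841), with a peak of 1092 bp at its 3′ end. The arms did not overlap, and the level was still under 1 RPKM in EPZ6438.

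Wnt7b, a Wnt ligand, was the only Wnt gene with a persisting peak that had enough reads for the test. It gave 0.229, 0.133 and 0.179 RPKM in DMSO and 0.495, 0.497 and 0.634 in EPZ6438 (1.20 ± 0.21, adjusted p = 0.0168). Its peak of 1671 bp at the right end of the gene (chr15:85580594-85582264) was 23.1% covered. The call was lost in 5 of 13 other fits, without DMSO library 2 (adjusted p = 0.0743), without EPZ6438 library 1, 2 or 3 (0.0549, 0.0595 and 0.0789) and with no filter (0.0853).

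Phf19, which encodes a Polycomb repressive complex 2 partner that binds methylated H3K36, was the only member of a list of 13 Polycomb and H3K27 enzyme genes with a persisting peak. It gave 0.285, 0.411 and 0.313 RPKM in DMSO and 0.745, 0.855 and 0.773 in EPZ6438 (1.04 ± 0.18, adjusted p = 0.0171). The peak of 2179 bp over its 5′ end (chr2:34912381-34914559) was 10.9% covered, and most of that remainder lay on the promoter printed above. An H3K4me3 peak was at the gene's ends in both arms. The rise was not called with any 1 EPZ6438 library left out (adjusted p = 0.0591, 0.0764 and 0.0753) or with no filter (0.10).

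A further 6 of the 10 largest rises with at least 1 CPM were between 1.26 and 1.48 on the log2 scale. Tspan18, a tetraspanin, gave 0.761, 0.936 and 0.911 RPKM in DMSO and 2.38, 2.75 and 2.68 in EPZ6438 (1.48 ± 0.15, adjusted p = 0.00193), with a peak of 347 bp, 85.3% covered, at its right end. Clec2l, a C-type lectin-like gene whose promoter is printed above, gave 0.223, 0.441 and 0.469 RPKM and then 1.23, 1.13 and 0.734 (1.26 ± 0.29, adjusted p = 0.0460). Coro2b, a coronin of the actin cytoskeleton, had 0.304 ± 0.0466 and 0.864 ± 0.0575 RPKM (SD, n = 3; 1.26 ± 0.17, adjusted p = 0.00640). Slc35g1, a solute carrier family member, had 0.399 ± 0.0454 and 1.10 ± 0.134 (1.26 ± 0.17, adjusted p = 0.00662) at a peak of 3754 bp, 22.2% covered. Bcan, the proteoglycan brevican, and Extl1, a glycosyltransferase of the exostosin family, each had a log2 change of 1.27 ± 0.29 (adjusted p = 0.0443 and 0.0438). Bcan and Extl1 lost the call with any 1 library left out (adjusted p from 0.0663 to 0.150 and from 0.0658 to 0.162). They also lost it with no filter (0.115 and 0.127) and with 0.01 added to RPKM instead of 0.1 (0.0827 and 0.0726). Bcan lost it with 1 added as well (0.0577). Clec2l lost it without DMSO library 1 or 2 (0.0675 and 0.119) and without EPZ6438 library 1, 2 or 3 (0.144, 0.151 and 0.0692). The Clec2l call was also lost with no filter (0.143), with 0.01 added (0.0538), with a replicate block (0.051) and in voom (0.0576). Coro2b and Slc35g1 lost it only with no filter (adjusted p = 0.0528 and 0.0503).

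The other rising genes, Tlx1 among them, fell outside the naming rule and are given after their values were seen. Ptprv, a receptor tyrosine phosphatase gene, had the highest level of them in EPZ6438: 6.16, 7.91 and 8.93 RPKM in DMSO and 15.8, 19.5 and 16.3 in EPZ6438 (1.17 ± 0.16, adjusted p = 0.00639). Tbc1d16, a Rab GTPase-activating protein gene, gave 2.54, 2.84 and 3.10 and then 5.53, 5.66 and 5.27 (0.94 ± 0.12, adjusted p = 0.00514). Pde4dip, which encodes a protein of the centrosome and Golgi, had 5.76 ± 0.0785 and 8.30 ± 0.200 RPKM (0.52 ± 0.09, adjusted p = 0.0157); the call was lost without DMSO library 2 (0.0888) or EPZ6438 library 1, 2 or 3 (0.0739, 0.0645 and 0.102). Colgalt2, a collagen galactosyltransferase gene, was at 0 in all DMSO libraries and at 0.257, 0.127 and 0.200 RPKM in EPZ6438 (adjusted p = 0.0106); it was not called without DMSO library 2 (0.0541) or EPZ6438 library 3 (0.0525). Cryba2, a lens crystallin gene, rose by 2.15 ± 0.28. Smtnl2, Guca1a, Acoxl, Mtus2, Ncald, Trp53i11, Ppm1e and Gimap6 rose by 0.85 to 1.55, with DMSO means of 0.0115 to 0.583 RPKM (limma, adjusted p = 0.0168 to 0.046). Several of these calls were fragile. Of 13 other fits, Trp53i11 lost its call in 11, Mtus2 in 9, Smtnl2 in 8, and Ncald and Gimap6 in 7 each. Guca1a and Ppm1e lost it in 5 each and Acoxl in 3. The calls of 9 genes, among them Hoxb13, Fam167a, Tlx1, Tspan18, Cryba2, Ptprv, Tbc1d16 and Gstt1, held in all 13 other fits; each of the other 18 was lost in at least 1, for every 1 of them but Coro2b and Slc35g1 in a fit without 1 library.

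Gstt1, a glutathione S-transferase gene, fell from 23.9, 25.8 and 29.0 RPKM to 11.2, 13.2 and 13.0 (log2 change −1.07 ± 0.11, adjusted p = 0.00218). Its persisting peak was 191 bp (chr10:75799150-75799340), 93.7% covered, at the 5′ end, and H3K4me3 peaks were at its ends in both arms. Gm5643, a processed pseudogene on X, went from 3.51 ± 0.239 to 1.95 ± 0.201 RPKM (−0.82 ± 0.13, adjusted p = 0.0131); its reads could belong to its parent gene, so its value is uncertain, and the call was lost without DMSO library 2 (0.0820), EPZ6438 library 1 (0.0594) or EPZ6438 library 3 (0.0745).

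The genes with a persisting peak and the highest levels were mostly pseudogenes or predicted genes. The 5 highest in DMSO were Gm12481 (237 ± 85.5 RPKM), Gm11808 (195 ± 49.8), Rps15a-ps7 (94.2 ± 14.5), Gm12183 (47.2 ± 7.39) and Dpy30 (44.6 ± 4.24). Gm12481, Rps15a-ps7 and Gm12183 are annotated as processed pseudogenes and Gm11808 as a predicted coding gene, and near-identical copies could share the reads of all 4. Dpy30 encodes a subunit of H3K4 methyltransferase complexes; a persisting peak of 1000 bp lay beyond its 5′ end (chr17:74324304-74325303), 30.5% covered, and it had 36.5 ± 0.966 RPKM in EPZ6438 (adjusted p = 0.109). None of the 5 passed the test in any of the 13 other fits either.

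A persisting peak lay at the ends of a larger share of developmental transcription factor genes than of all genes. Of 209 genes in 5 such lists, 89 (42.6%) had a DMSO peak at an end, against 16.2% of all genes and 17.0% of protein-coding genes. A persisting peak was present at 32 (15.3% of 209, against 2.86% of all genes), which is 36.0% of the 89; over all genes 1237 of 6997 marked genes had one (17.7%), and over protein-coding genes 18.8%. Of the 32, 21 had no read in any library, 4 could be tested and 3 of these, Hoxb13 and Tlx1 among them, rose. The lists were chosen with results of these data known, and differences between them were not tested. The counts of rises and falls given below for each list stand against 3.8% and 3.24% of all tested genes and a median log2 change of −0.03.

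Homeobox genes outside the Hox clusters gave the largest group, with 16 of 41 marked genes persisting. They included Six3, Nkx2-3, Lhx5, Irx4, Otp, Vax1, Pitx1, Tlx1, Onecut3, Cdx2, Pdx1, Uncx, Hmx1 and Vsx1; 13 of the 16 had no read. Uncx, a somite and kidney regulator, had a peak of 4508 bp, 38.2% covered, and 0 reads; Nkx2-3, of gut and spleen vessels, had one of 2756 bp, 71.2% covered, and 0 reads. Onecut3 had 6 reads in DMSO and 23 in EPZ6438, too few to be tested. In the list as a whole 4 of 33 tested genes rose and 2 fell, with a median log2 change of −0.08, where 3.8% and 3.24% of all tested genes did so.

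Among Hox genes, 3 of 14 marked genes persisted: Hoxb13, Hoxb9 and Hoxd13. Hoxb9 was expressed, at 1.92, 1.71 and 1.49 RPKM in DMSO and 2.66, 2.28 and 2.64 in EPZ6438; the arms did not overlap, but the change of 0.54 missed the threshold (adjusted p = 0.0766) and passed it only with median-of-ratios scaling (0.0471, with up to 0.257 in the other fits). Hoxd13, of the digits, had 0 reads in every library; its peak was 368 bp, 30.2% covered, on the promoter printed above. Of 16 tested Hox genes 1 rose and 0 fell (median 0.06).

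Forkhead genes had 4 of 9 marked genes persisting (Foxa2, Foxe1, Foxi3 and Foxn4), of which 3 had no read. Foxn4, a factor of retinal and spinal progenitors, had a peak of 848 bp that was 100% covered, and 0 reads. Foxa2, of endoderm and floor plate, had 2 reads, both in 1 EPZ6438 library. In this list 0 of 5 tested genes rose and 1 fell (median −0.11). Neural basic helix-loop-helix genes had 5 of 10 (Neurod2, Neurog1, Neurog2 and Atoh7 among them), of which 4 had no read. Neurod2 had a peak of 5211 bp, 17.8% covered. Neurog2 had 0, 0.0404 and 0.0354 RPKM in DMSO and 0.171, 0.130 and 0.224 in EPZ6438 (4 and 25 reads), too few to be tested; its peak of 673 bp was 77.4% covered. The T-box, Sox, Pax and Gata genes had 4 of 15 (Tbx5, Tbx21, Sox8 and Pax2). Pax2, of kidney and eye, had a peak of 2238 bp, 68.6% covered, with 0 reads in DMSO and 6 in EPZ6438; Tbx5 and Tbx21 had 0 reads in DMSO and 1 and 3 in EPZ6438. In that list 3 of 14 tested genes rose and 0 fell (median 0.31).

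Wnt genes are named in the title of the study. Of 33 Wnt ligands and receptors, 12 had a DMSO peak at an end and 5 a persisting one (41.7% of the marked): the ligands Wnt3, Wnt3a, Wnt7a, Wnt7b and Wnt8b. Wnt3a had a peak of 1273 bp at its 5′ end (chr11:59290036-59291308), 77.5% covered and overlapping the promoter printed above, and 0 reads in every library. Wnt8b, whose peak of 1345 bp was 18.3% covered, had 0 reads in DMSO and 7 in EPZ6438. In the whole list 7 of 21 tested genes rose and 0 fell (median log2 change 0.39; 3.8% rose and 3.24% fell over all tested genes), but only Wnt7b was both persisting and tested. Of 16 Wnt antagonists, Sfrp5 alone of 7 marked genes persisted, with 0 reads; 5 of 8 tested antagonists rose and 3 fell (median 0.84).

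Hedgehog genes, also in the title, had 1 persisting member of 8 marked: Shh, the ligand Sonic hedgehog. Its peak of 3919 bp over the right end (chr5:28463424-28467342) was 48.8% covered, and it had 0 reads in DMSO and 2 in EPZ6438; 2 of 14 tested genes of the list rose and 1 fell (median 0.12). BMP and TGF-beta ligands and antagonists had 1 of 7, Chrdl2, a BMP antagonist with 0 reads; 3 of 17 tested rose and 1 fell (median 0.27).

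Of 25 osteoblast markers 2 had a DMSO peak at an end and 0 a persisting one. With 2.86% of all genes and 17.7% of all marked genes at a persisting peak, lists with so few marked genes cannot show a difference. Of the 23 tested markers 13 rose and 1 fell (median 0.74), against 3.8% and 3.24% over all tested genes. Imprinted genes (3 marked of 24; 4 of 13 tested rose and 1 fell, median 0.10) and CDK inhibitors (1 marked of 7; 1 of 4 rose and 2 fell, median −0.14) also had 0 persisting, with too few marked genes to be read. For the list of Polycomb and H3K27 enzymes 1 of 13 tested rose and 0 fell (median −0.11).

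Markers of other cell types held a few. Matn1, a cartilage matrix gene, was the 1 of 3 marked chondrocyte genes with a persisting peak; it had 0, 0.0225 and 0 RPKM in DMSO and 0.237, 0.166 and 0.0499 in EPZ6438 (1 and 20 reads), and 6 of 10 tested chondrocyte genes rose (median 0.88). Of 8 marked neuronal genes 3 persisted. Slc17a7, a vesicular glutamate transporter gene, had 0.235, 0.276 and 0.148 RPKM in DMSO and 0.485, 0.380 and 0.629 in EPZ6438 (log2 change 0.91, adjusted p = 0.0766) at a peak of 6631 bp, 35.1% covered; Snap25 had 0 and 1 reads and Slc32a1 1 and 0. Cdh5 and Kdr, genes for VE-cadherin and a VEGF receptor, and Plin1, of fat droplets, had 0, 0 and 2 reads in all. The blood cell and skeletal muscle lists had 4 and 2 marked genes and 0 persisting.

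The 10 genes with the most persisting-peak bases along their length are given here. They were ranked without regard to gene length, so long genes are favoured. Gm20388 (75154 bp in 54 peaks) is an annotation of several Mb on chromosome 8 that overlaps many other genes, so its 33.1 ± 4.90 RPKM in DMSO cannot be assigned to it. Next came Lgr6, an R-spondin receptor gene, where 18 peaks held 30025 of 39940 bp of DMSO peaks, and Nrxn2, a synaptic adhesion gene, where 14 held 28960 of 46520 bp. Gucy2c, an intestinal guanylate cyclase gene, had 26803 of 33129 bp in 10 peaks. Rbfox3, a neuronal splicing factor gene, and Atp2b2 and Dgki, a calcium pump and a diacylglycerol kinase gene, had 27, 26 and 19 persisting peaks. Zdhhc14, Cacna2d4 and Armc3 completed the 10, with 25, 15 and 6. Rbfox3, Atp2b2 and Cacna2d4 were at 0 RPKM in all 6 libraries, and Lgr6, Nrxn2, Gucy2c, Dgki, Zdhhc14 and Armc3 had at most 0.113 RPKM in any library, so none of these 9 could be tested. In the classes by gene ends, Armc3, Atp2b2, Gucy2c and Zdhhc14 counted as having no DMSO peak. Gm20388, Cacna2d4 and Rbfox3 counted as having other DMSO peaks only.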

How the data were processed

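RNA was measured in 3 DMSO and 3 EPZ6438 samples and histone marks by ChIP with input. The authors deposited expression as RPKM, per the file headers, and 1 merged peak list per mark and arm; the deposited lists hold other values, namely coordinates alone. Per the submitters' processing notes the tools included STAR 2.6.1c, Subread and MACS2 and the build was mm10; thresholds of peak calling and strandedness of counting were not given in those sources. Peaks were compared with Python 3.11.15 and pandas 2.3.3, with 1-based coordinates. Neighbours are DMSO peaks whose midpoints lie within 50 kb. Gene ends are both ends of the gene in the table, which has no strand; 5′ and 3′ come from RefSeq promoters where the symbol matched (18182 genes).

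RPKM gave back whole reads for 100% of values (tolerance 0.001). Genes with 10 reads in 3 libraries were tested with limma 3.58.1 (trend, two-sided, R 4.3.3) on log2(RPKM + 0.1). The values being RPKM, the planned count test was not run, and voom on recovered reads took its place. On simulated reads for 14213 genes in these arms, limma recovered 42% of 1.5-fold and 96% of 2-fold changes, with 6.21% false among 177 calls. The changed genes were drawn from all tested genes, whose median was 7.65 RPKM in DMSO, with 1 common dispersion of 0.0116. Tested genes with a persisting peak had a median of 1.22 RPKM, so these rates may not hold for them.

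The members, the 19 gene lists (444 of 450 entries found) and the naming rule were chosen with earlier results of these data known. Named were the 10 largest rises and falls that passed without overlap and with at least 1 CPM in the higher arm, the 5 highest in DMSO, the 10 with most persisting bases, up to 3 genes per list (the other persisting members by name only), the 5 widest peaks, the 3 densest windows and the peaks nearest the limit of the rule. Peaks of at least 400 bp, other windows, pseudocounts, scaling, filters, a replicate block and leaving out each library were tried; protein-coding genes alone and leaving out chromosome 6 were added after seeing the data. Results of some single genes are not reported here.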

Additional observations from a re-analysis of the deposited data

How the results depend on the processing

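Rises with a persisting peak at a gene end (25 of 127) outnumbered falls (2) in all alternatives tried. Leaving out 1 library gave 11 to 19 rises and 1 to 3 falls, 50 to 103 rises and 3 to 15 falls for genes with other DMSO peaks only (109 and 15 with every library), and 323 to 978 calls over all genes (1001). With no filter these were 15 rises of 540 (2.78%) with a persisting peak, 64 rises (2.37%) and 9 falls of 2701 with other peaks only, and 628 calls in all; with the filter 19.7% and 11.2% rose. Coverage of at least 50% gave 7864 persisting peaks, 8 rises and 1 fall of 55 (14.5% rose), against 126 and 16 of 1042 (12.1%). Peaks of at least 400 bp gave 7251 persisting peaks, 11 rises and 0 falls of 60 tested (18.3% rose), and 66 and 9 of 581 with other peaks only (11.4%). Windows of 0.5 kb gave 19 rises and 1 fall of 92, and 62 and 8 of 517 with other peaks only. Windows of 5 kb gave 81 rises and 13 falls of 557 (14.5% rose) against 239 and 84 of 4412 (5.42%), and whole genes 81 and 12 of 445 (18.2%) against 193 and 69 of 2404 (8.03%); over all tested genes 3.8% rose. Protein-coding genes alone gave 1 fall.

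The replicate block gave 21 rises and 4 falls with a persisting peak, 113 and 17 with other peaks only, and 1051 calls in all. To see if same-numbered libraries deviate together, each gene's mean in its arm was subtracted from its log2(RPKM + 0.1) values. These deviations, not the expression levels, correlated at 0.41, 0.0781 and 0.0561 between same-numbered libraries, and at −0.405 to 0.331 between the others. The column headers of same-numbered libraries share a prefix across the arms, which could mark pairs. With 3 libraries per arm the correlations cannot decide if the libraries were paired. The main fit took no pairs, and the replicate block gives the counts with pairs. The deviations of DMSO library 3 correlated better with those of EPZ6438 library 2 (0.331) than with those of its own number.

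H3K4me3 in DMSO overlapped 26.4% of persisting peaks (others 10.1%); the share was 21.3% (11.3%) with 50% coverage of the DMSO peak, 31.8% (14.6%) with peaks of at least 400 bp, and 4.85% (3.75%) where H3K4me3 had to cover 50%. Persisting peaks at gene ends, 8.01% (5.44%), were 5.36% (3.10%) within 0.5 kb, 25.8% (22.0%) within 5 kb, 7.45% (5.62%) with 50% coverage and 9.07% (6.20%) at 400 bp. The median width of 803 bp became 454 and 1200 bp under the last pair of rules. The median of 16 neighbours (others 10) was 4 (2) within 10 kb, 57 (41) within 250 kb and 9 (6) with peaks of at least 400 bp. In each of these measures the persisting peaks were above the others. Depth limits RNA below 0.118 to 0.160 CPM; that of the peak lists is unknown. Causes of these shifts were not tested.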
